A study of Homo sapiens with 4 samples.

Results

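Integrins are the cell surface receptors by which cells hold on to the extracellular matrix, and the genes of 10 of their subunits were followed here in A375 and SK-MEL-28, a pair of human melanoma cell lines. The 10 genes (ITGA2, ITGA3, ITGA4, ITGA5, ITGA6, ITGA9, ITGAV, ITGB1, ITGB3 and ITGB5) are 10 of the 18175 genes and loci in the deposited expression table and 10 of its 17 integrin subunit genes. They were chosen by name, from integrin genes whose levels and siRNA ratios in these libraries had already been seen, so what follows describes them and no count over them is independent evidence. The groups were SK-MEL-28 with siLINC01291, SK-MEL-28 with siNC, A375 with siLINC01291 and A375 with siNC. siLINC01291 targets LINC01291, a long non-coding RNA, and siNC is by its name the negative control siRNA. All cells were grown in the same serum-containing medium. The treatment label also names EL, which it does not explain, nor does any label say whether these libraries received it. With 1 library in each group, differences inside a line have no replicate check, and the siRNA was repeated only across the 2 lines.

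An integrin is a dimer of 1 alpha and 1 beta chain, both of which cross the membrane. The pair decides which matrix protein is bound, and the short tails inside the cell are held by talin and kindlin, which switch the receptor on and tie it to actin. ITGB1 is shared by most of the alpha chains, while ITGAV can pair with several beta chains. In melanoma, ITGB3 with ITGAV has long been studied as a receptor of the invasive stage.

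The libraries held 29351240 to 31815336 counts over the listed genes. LINC01291 fell by 1.34 on the log2 scale over both lines in edgeR's quasi-likelihood fit, with a standard error of 0.13 (adjusted p = 0.0171), which checks the siRNA labels. Of 10 melanocyte lineage markers, 10 reached 1 FPKM (read counts scaled by gene length and library total) in SK-MEL-28, with a summed FPKM of 1954 with siLINC01291 and 1633 with siNC. In A375 5 of the 10 did, with a summed FPKM of 138 with siLINC01291 and 96.2 with siNC, and MLANA, TYR, DCT, TYRP1 and S100A1 stayed under 1. The epithelial keratin KRT18 was at most 4.90 FPKM in SK-MEL-28 and 71.1 in both A375 libraries, and CDH1 stayed under 1 in all 4. The part of these marker differences in the integrin values that follow was not tested.

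ITGA9, whose product pairs with ITGB1 and binds tenascin C and other ligands, was the integrin subunit that rose with siLINC01291. Its FPKM was 2.68 in SK-MEL-28 siLINC01291 and 0.874 in SK-MEL-28 siNC, and 1.15 in A375 siLINC01291 and 0.324 in A375 siNC. Both siLINC01291 libraries lay above both siNC libraries. In counts these were 651 against 213 in SK-MEL-28 and 304 against 83 in A375. For normalised CPM, counts were scaled by the library total and by edgeR's TMM factor. The ratio of normalised CPM was 3.00 in SK-MEL-28 (95% exact binomial interval 2.57 to 3.52) and 3.46 in A375 (2.70 to 4.46). Such intervals cover counting error only. Over both lines the ITGA9 log2 change was 1.67, a rise with SE 0.15 that passed the edgeR test, in which the cell line was a block (adjusted p = 0.0133, higher in 2 of 2 lines).

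ITGA9 was the only one of the 10 that passed that test, and 0 of the 10 fell. Over all 13501 genes tested, 0.222% rose and 0.674% fell. At an unadjusted p under 0.05 in edgeR 1 member was higher (ITGA9) and 1 lower (ITGA4), where 8.53% of all genes tested were higher and 8.37% lower, and DESeq2 called the same 1 member and 0 in the downward direction. To be tested a gene had to reach 1 FPKM in 2 or more libraries, and ITGA9 met this only through the siLINC01291 libraries; with no such minimum it was called too (log2 change 1.67, edgeR adjusted p = 0.00140). The call was lost in edgeR without the cell line term (adjusted p = 1.00) and in limma on log2(FPKM + 1) (0.84, adjusted p = 0.110). Limma on log2(FPKM + 0.1) did not call ITGA9 either (1.54, adjusted p = 0.137). Over its alternatives the adjusted p ran between 2.03e-05 and 1.00. GENCODE 29 places ITGA9 (ENSG00000144668) on the + strand of GRCh38 at chr3:37452115-37823514, where ITGA9-AS1 lies on the other strand. The labels do not say that counting used the strand. Where exons of these genes overlap, their reads could then not be told apart. Overlap was looked at over whole genes and not over exons, so an effect on the counts was not tested. The same limit holds for ITGA2, ITGA5, ITGA6, ITGAV, ITGB1, ITGB3 and ITGB5, which also have annotated genes on the other strand.

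**Figure D1:**
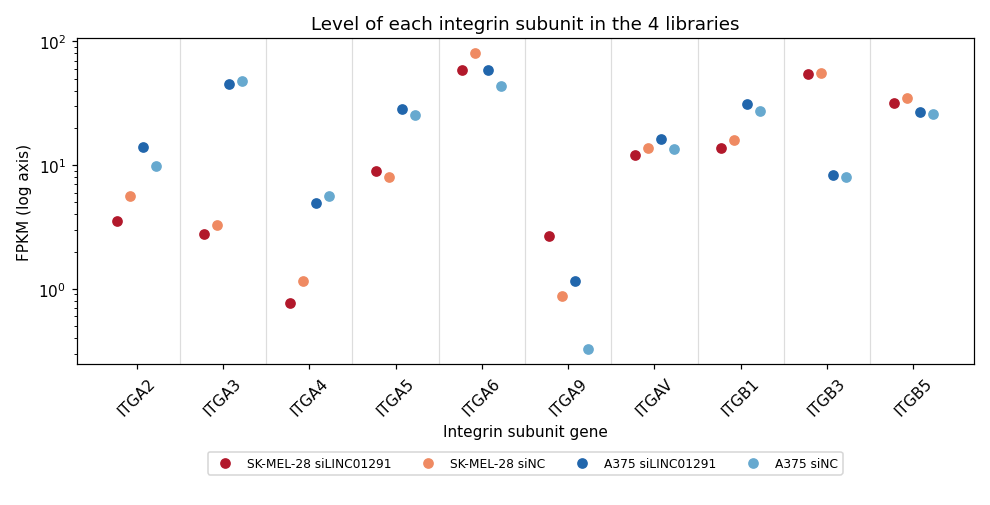
FPKM of the 10 integrin subunits (log axis) in each of the 4 libraries, 1 point per library. ITGA3 and ITGB3 show the widest gaps between the lines. On the log axis, ITGA9 is the subunit whose siLINC01291 points (2.68 and 1.15) stand furthest above its siNC points (0.874 and 0.324) in each line.

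ITGA4 is the closest relative of ITGA9 among the alpha chains and is a receptor for VCAM1 and fibronectin. Its FPKM was 0.766 in SK-MEL-28 siLINC01291 and 1.16 in SK-MEL-28 siNC, and 4.93 in A375 siLINC01291 and 5.66 in A375 siNC. It was lower with siLINC01291 in both lines, opposite to ITGA9. The log2 ratio was -0.62 in SK-MEL-28 and -0.24 in A375, and the change over both lines was -0.40 (SE 0.13, edgeR adjusted p = 0.201). The gene (ENSG00000115232) lies at chr2:181457202-181536187 on the + strand of GRCh38.

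Of the laminin receptor chains, ITGA3 was far apart between the lines, while ITGA6 had siRNA ratios of opposite sign in them. ITGA3 had an FPKM of 2.80 in SK-MEL-28 siLINC01291 and 3.28 in SK-MEL-28 siNC, and of 44.9 in A375 siLINC01291 and 48.0 in A375 siNC. Both SK-MEL-28 libraries lay far below both A375 libraries, with little movement by siRNA (log2 ratio -0.26 in SK-MEL-28 and -0.14 in A375, over both lines -0.19, SE 0.08, edgeR adjusted p = 0.323). ITGA6 had an FPKM of 58.7 in SK-MEL-28 siLINC01291 and 81.0 in SK-MEL-28 siNC, and of 58.7 in A375 siLINC01291 and 43.7 in A375 siNC. The match of the 2 siLINC01291 libraries to 3 digits belongs to scales without TMM factors, such as FPKM. In normalised CPM ITGA6 stood at 415 in SK-MEL-28 siLINC01291 and 369 in A375 siLINC01291. In FPKM and in normalised CPM, siNC was above siLINC01291 in SK-MEL-28 and below it in A375. The log2 ratio was -0.49 in SK-MEL-28 (counting interval of the ratio 0.694 to 0.728) and 0.39 in A375 (1.27 to 1.34). Their joint log2 change of -0.05 (SE 0.19, edgeR adjusted p = 0.926) averages over these opposite values. ITGA3 (ENSG00000005884) lies at chr17:50055968-50090481 and ITGA6 (ENSG00000091409) at chr2:172427354-172506282, both on the + strand of GRCh38.

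The collagen receptor subunit ITGA2 had opposite signs in the lines, as ITGA6 did. Its FPKM was 3.56 in SK-MEL-28 siLINC01291 and 5.65 in SK-MEL-28 siNC, and 14.1 in A375 siLINC01291 and 9.81 in A375 siNC. It was 1.62-fold lower with siLINC01291 in SK-MEL-28 (ratio 0.617, counting interval 0.565 to 0.674) and 1.40-fold higher in A375 (1.33 to 1.47). Over both lines its log2 change was -0.08 (SE 0.25, edgeR adjusted p = 0.911), the widest SE of the 10. ITGA2 (ENSG00000164171) lies at chr5:52989326-53094779 on the + strand of GRCh38, next to ITGA1, which codes for another collagen receptor chain (ENSG00000213949, chr5:52787896-52959210, + strand), which is not among the 10. ITGA1 had an FPKM of 0.390 in SK-MEL-28 siLINC01291 and 0.574 in SK-MEL-28 siNC, and of 6.82 in A375 siLINC01291 and 4.02 in A375 siNC. The ITGA1 log2 ratios of -0.58 in SK-MEL-28 and 0.72 in A375 had the same signs as those of ITGA2 in each line.

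ITGA5 and ITGAV code for receptors of the RGD motif, ITGA5 for the fibronectin receptor and ITGAV for the vitronectin receptor chain. ITGA5 had an FPKM of 8.98 in SK-MEL-28 siLINC01291 and 8.05 in SK-MEL-28 siNC, and of 28.5 in A375 siLINC01291 and 25.5 in A375 siNC. The log2 ratios were 0.13 in SK-MEL-28 and 0.12 in A375, alike in sign and size, yet the joint change of 0.12 did not pass (SE 0.09, edgeR adjusted p = 0.516). ITGAV had an FPKM of 12.2 in SK-MEL-28 siLINC01291 and 13.9 in SK-MEL-28 siNC, and of 16.2 in A375 siLINC01291 and 13.5 in A375 siNC. ITGAV levels of the lines overlapped. Its log2 ratio was -0.22 in SK-MEL-28 and 0.22 in A375, and the joint change was 0.00 (SE 0.12, edgeR adjusted p = 0.990). ITGA5 (ENSG00000161638) lies at chr12:54395261-54419460 on the - strand and ITGAV (ENSG00000138448) at chr2:186590065-186680901 on the + strand of GRCh38.

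Of the beta chains, ITGB1, the common partner, had an FPKM of 13.8 in SK-MEL-28 siLINC01291 and 15.9 in SK-MEL-28 siNC, and of 31.4 in A375 siLINC01291 and 27.3 in A375 siNC. It had the signs of ITGA2, ITGA6 and ITGAV, with log2 ratios of -0.23 in SK-MEL-28 and 0.16 in A375. ITGB1P1, a pseudogene copy listed separately, showed the same signs (-0.29 and 0.14), and since reads can match both, ITGB1 is uncertain to that extent; ITGB1P1 held 217 and 262 counts in SK-MEL-28 (siLINC01291, siNC) and 617 and 530 in A375, against 5921 to 14592 for ITGB1. ITGB3, the melanoma-associated beta chain, had an FPKM of 54.1 in SK-MEL-28 siLINC01291 and 56.0 in SK-MEL-28 siNC, and of 8.38 in A375 siLINC01291 and 8.01 in A375 siNC. ITGB3 had log2 siRNA ratios of -0.08 in SK-MEL-28 and 0.03 in A375, and of the 3 beta chains the largest gap between the lines. ITGB5, another partner of ITGAV, had an FPKM of 31.6 in SK-MEL-28 siLINC01291 and 35.2 in SK-MEL-28 siNC, and of 26.9 in A375 siLINC01291 and 25.8 in A375 siNC. Its log2 ratios were -0.18 in SK-MEL-28 and 0.02 in A375. None of these 3 passed over both lines (edgeR adjusted p = 0.918 for ITGB1, 0.911 for ITGB3 and 0.719 for ITGB5). On GRCh38, ITGB1 (ENSG00000150093) lies at chr10:32900319-33005792 on the - strand, ITGB3 (ENSG00000259207) at chr17:47253846-47311816 on the + strand and ITGB5 (ENSG00000082781) at chr3:124761948-124901418 on the - strand.

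**Figure D2:**
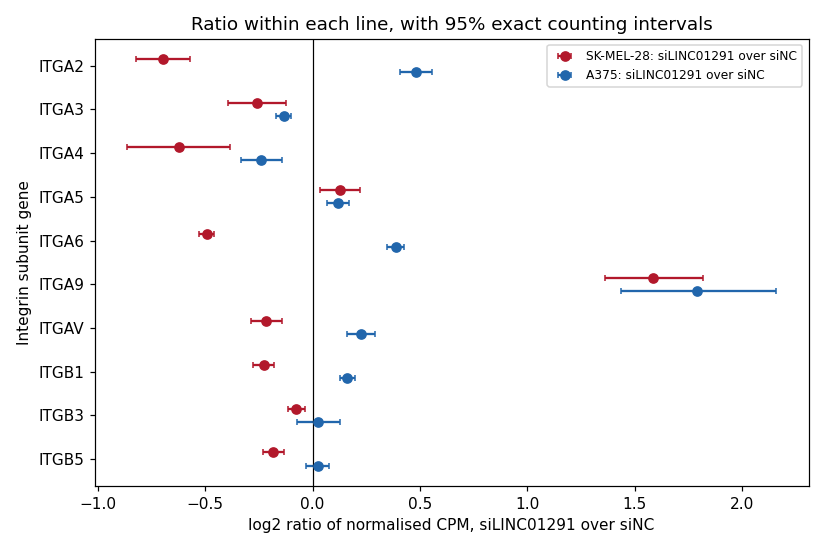
Log2 ratio of normalised CPM, siLINC01291 over siNC, for each subunit in SK-MEL-28 and in A375, with 95% exact counting intervals. ITGA2, ITGA6, ITGAV and ITGB1 lie below 0 in SK-MEL-28 and above 0 in A375 with intervals that do not reach 0, and ITGA9 is far above 0 in both.

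Set side by side, the siRNA ratios of the 2 lines had opposite signs for 6 of the 10 subunits (ITGA2, ITGA6, ITGAV, ITGB1, ITGB3 and ITGB5). The 10 were chosen with these ratios already seen. Opposite signs were seen in 36.6% of all genes tested and in 2 of the 5 other integrin subunits tested. For ITGA2, ITGA6, ITGAV and ITGB1 the counting intervals of both lines exclude a ratio of 1. For ITGB3 and ITGB5 the A375 intervals include it (0.951 to 1.09 and 0.978 to 1.06). Such intervals narrow as counts grow, and how many of all genes tested meet this rule was not counted. All 6 were lower in SK-MEL-28 and higher in A375. ITGA5 and ITGA9 were higher in both lines, and ITGA3 and ITGA4 lower in both. With 1 library per group the difference between the lines in their response could not be tested. The scaling bears on the small ones: the median log2 ratio of all genes was 0.00 in each line, and with library sizes alone ITGA3 moved to -0.09 and ITGB1 to 0.20 in A375. Each of the 10 kept its sign in both lines under the other scalings, prior counts and pseudocounts tried.

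At least 1.5-fold differences within a line were few. In SK-MEL-28, siLINC01291 was at least 1.5-fold above siNC for 1 of the 10 (ITGA9; 6.19% of all genes) and at least 1.5-fold below for 2 (ITGA2 and ITGA4; 5.90%). In A375 it was above for 1 (ITGA9; 3.63%) and below for 0 (3.32%). On the log2(FPKM + 1) scale ITGA2 and ITGA4 no longer reached 1.5-fold in SK-MEL-28 (-0.55 and -0.29).

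**Figure D3:**
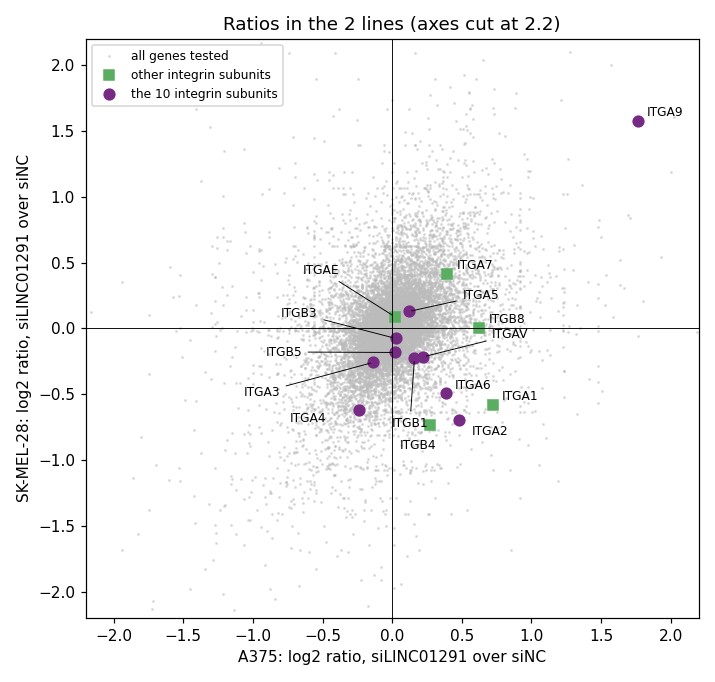
Log2 ratio of siLINC01291 over siNC in SK-MEL-28 (vertical) against A375 (horizontal) for all 13501 genes tested (grey), the 10 integrin subunits (circles) and 5 other subunits (squares), with axes ending at 2.2. ITGA9 lies at the upper right, apart from the other integrin subunits, and ITGA2, ITGA6 and ITGA1 lie in the part of the plot that is lower in SK-MEL-28 and higher in A375.

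The lines themselves differed in their levels of integrin subunit transcripts. Over both siRNAs, SK-MEL-28 against A375 in the same edgeR fit, 9 of the 10 passed, 4 higher and 5 lower in SK-MEL-28, where 72.4% of all genes tested passed in either direction. ITGA3 was 13.7-fold lower in SK-MEL-28 (log2 -3.77, SE 0.09, edgeR adjusted p = 8.42e-07) and ITGB3 7.53-fold higher (2.91, SE 0.09, edgeR adjusted p = 1.49e-06). ITGA4 was 4.99-fold, ITGA5 2.83-fold, ITGA2 2.33-fold and ITGB1 1.76-fold lower in SK-MEL-28. ITGA9 was 2.77-fold, ITGA6 1.53-fold and ITGB5 1.42-fold higher there. ITGAV, with a log2 difference of -0.02 (SE 0.12, edgeR adjusted p = 0.907), did not pass. The p-values rest on 2 cultures of each line under different siRNAs, whose spread may be technical. The calls of ITGA6 (edgeR adjusted p = 0.0267) and ITGA9 (0.000158) were lost under some alternatives: ITGA6 with library sizes alone (edgeR adjusted p = 0.0791), with an FPKM minimum of 5 (edgeR, 0.0516) and in limma on log2(FPKM + 1) (0.110) or log2(FPKM + 0.1) (0.122), ITGA9 without the siRNA term (edgeR, 0.138). Over all alternatives the adjusted p of the line difference ran between 0.00364 and 0.122 for ITGA6 and between 1.00e-05 and 0.138 for ITGA9.

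Levels of different subunits can be compared only per length. By FPKM the order in SK-MEL-28 siNC was ITGA6, ITGB3, ITGB5, ITGB1, ITGAV, ITGA5, ITGA2, ITGA3, ITGA4 and ITGA9. In A375 siNC it was ITGA3, ITGA6, ITGB1, ITGB5, ITGA5, ITGAV, ITGA2, ITGB3, ITGA4 and ITGA9. ITGB5 (25.8) and ITGA5 (25.5) were close in A375 siNC, and without replicates neighbours cannot be told apart. The authors' lengths weigh on this order: the FPKM of ITGB1 rest on 14.6 kb, while its principal transcript in GENCODE 29 has 3.78 kb, and those of ITGA4 on 10.7 kb against 4.19 kb. For ITGA2 and ITGA9 the lengths were close (7.90 against 7.87 kb, and 8.27 against 7.89 kb). Per kilobase of the principal transcript, a scale chosen after the data were seen, ITGB1 was the most abundant of the 10 in A375, at 121 CPM per kb with siLINC01291 and 105 with siNC. In SK-MEL-28 on that scale ITGB3 came first with siLINC01291 (85.9 CPM per kb, ITGA6 69.8) and ITGA6 with siNC (96.3, ITGB3 88.8).

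The make-up of the pool of subunit transcripts followed from these levels, and receptor protein was not measured in these libraries. ITGA6 supplied 57.2% of the summed alpha FPKM in SK-MEL-28 siLINC01291 and 65.1% in SK-MEL-28 siNC, and 32.2% in A375 siLINC01291 and 27.9% in A375 siNC. ITGA3 supplied 2.73% and 2.64% in SK-MEL-28 (siLINC01291, siNC) and 24.6% and 30.7% in A375. SK-MEL-28 thus drew most of its alpha chain transcripts from 1 laminin receptor gene, and A375 from several. ITGA9 made up 2.61% in SK-MEL-28 siLINC01291 and 0.701% in SK-MEL-28 siNC, and 0.631% in A375 siLINC01291 and 0.207% in A375 siNC, so even after its rise it stayed a minor chain. Among beta chains ITGB3 took 47.6% and 46.3% of the summed FPKM in SK-MEL-28 (siLINC01291, siNC) and 10.8% and 11.6% in A375. ITGB1 took 12.2% and 13.1% in SK-MEL-28 and 40.4% and 39.5% in A375. Per kilobase of the principal transcript the ITGB1 share was 25.2% and 27.0% in SK-MEL-28 and 63.0% and 62.2% in A375, so its size depends on the length used while the order of the lines does not. The ratio of ITGB1 to the summed FPKM of the alpha chains that can pair with it was 0.141 in SK-MEL-28 siLINC01291 and 0.132 in SK-MEL-28 siNC, and 0.176 in A375 siLINC01291 and 0.179 in A375 siNC. Per kilobase of the principal transcript this ratio was 0.422 and 0.401 in SK-MEL-28 (siLINC01291, siNC) and 0.448 and 0.437 in A375, so both its size and the order of the A375 libraries depend on the length used. The 10 genes carried 87.4 to 93.6% of the alpha FPKM and beta shares of 85.8 to 88.5%.

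**Figure D4:**
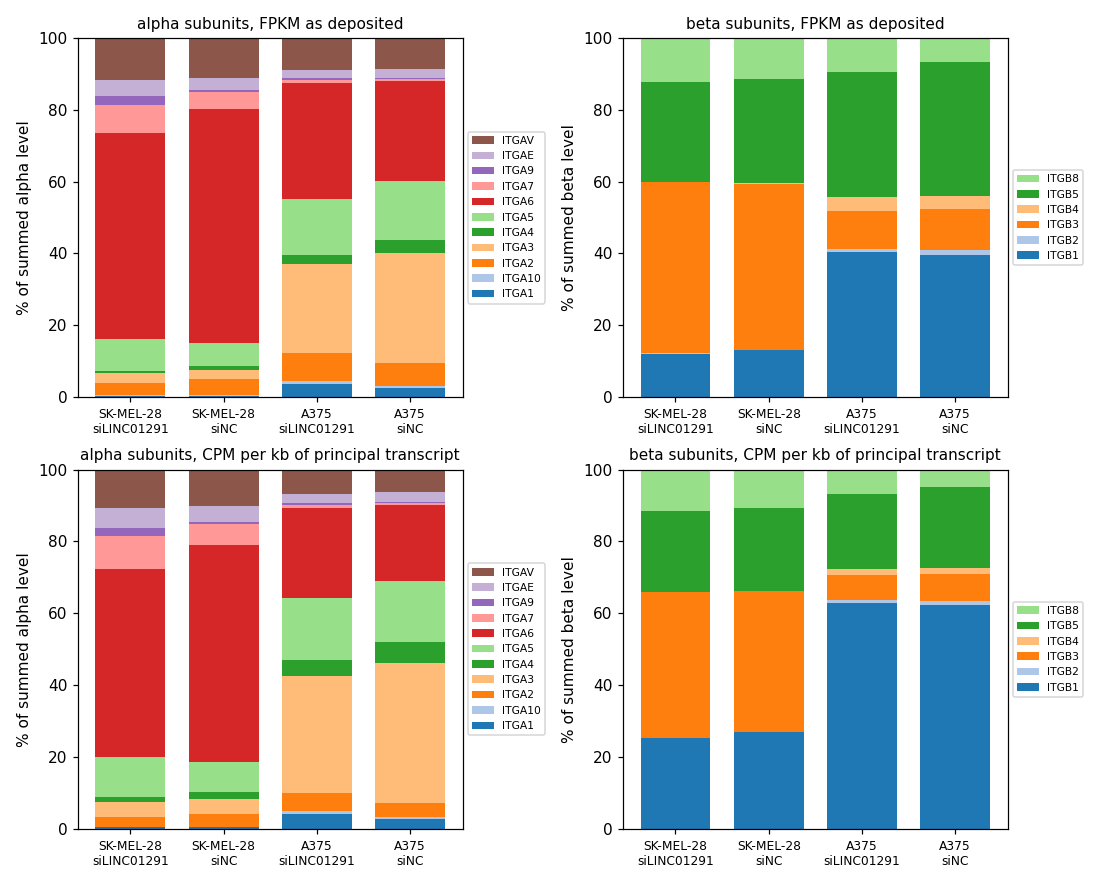
Share of each alpha chain (left) and beta chain (right) in the summed level of its kind per library, by deposited FPKM (top) and by CPM per kilobase of the principal transcript (bottom). ITGA6 and ITGB3 fill the largest parts in SK-MEL-28, and in A375 ITGA3 and ITGB1 are much larger than in SK-MEL-28.

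The table held 7 further integrin subunits, of which 5 could be tested and 0 passed for the siRNA (edgeR adjusted p between 0.151 and 0.848; 1 at an unadjusted p under 0.05, and 0 in DESeq2). ITGA7, a laminin receptor chain of muscle, was nearest, with an FPKM of 7.98 in SK-MEL-28 siLINC01291 and 5.88 in SK-MEL-28 siNC, and of 1.36 in A375 siLINC01291 and 1.00 in A375 siNC (log2 change 0.41, SE 0.11, edgeR adjusted p = 0.151). ITGB8, an ITGAV partner that takes part in activating TGF-beta, had an FPKM of 14.1 in SK-MEL-28 siLINC01291 and 13.8 in SK-MEL-28 siNC, and of 7.48 in A375 siLINC01291 and 4.71 in A375 siNC. It was 1.55-fold higher with siLINC01291 in A375 and level in SK-MEL-28 (ratio 1.00). ITGAE ranged from 4.04 to 4.44 FPKM over the 4 libraries. ITGB4, the partner of ITGA6 in epithelia, had an FPKM of 0.0302 in SK-MEL-28 siLINC01291 and 0.0552 in SK-MEL-28 siNC, and of 2.95 in A375 siLINC01291 and 2.37 in A375 siNC. ITGA10 and the leukocyte chain ITGB2 were too low to test, with an FPKM of at most 1.55 and 0.912. ITGA2B, ITGA8, ITGA11, ITGAD, ITGAL, ITGAM, ITGAX, ITGB6 and ITGB7 were not analysed here.

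Around the receptors, 1 ligand, 1 tail-binding protein and 1 relay kinase fell with siLINC01291 over both lines. The lists of such partner genes were chosen with earlier results of these data known, so no count over them is independent evidence. FN1, fibronectin and the ligand of ITGA5 and ITGB1, had an FPKM of 374.5 in SK-MEL-28 siLINC01291 and 569 in SK-MEL-28 siNC, and of 8.89 in A375 siLINC01291 and 13.0 in A375 siNC (log2 change -0.61, SE 0.06, edgeR adjusted p = 0.0161). FERMT2, kindlin-2, which binds beta chain tails and helps talin to activate integrins, had an FPKM of 3.90 in SK-MEL-28 siLINC01291 and 10.5 in SK-MEL-28 siNC, and of 4.10 in A375 siLINC01291 and 8.18 in A375 siNC (-1.24, SE 0.13, edgeR adjusted p = 0.0182). PAK2, a kinase driven by RAC1 and CDC42, had an FPKM of 14.7 in SK-MEL-28 siLINC01291 and 34.0 in SK-MEL-28 siNC, and of 10.6 in A375 siLINC01291 and 19.0 in A375 siNC (-1.06, SE 0.11, edgeR adjusted p = 0.0216). In all 3 genes each siLINC01291 library lay below the siNC library of its line. The 3 calls were lost in limma on log2(FPKM + 1) (adjusted p = 0.105 for FN1 and 0.0973 for FERMT2 and PAK2) and on log2(FPKM + 0.1) (limma adjusted p = 0.137 for each). They were also lost in edgeR without the cell line term (1.00), and PAK2 also with an FPKM minimum of 5 (edgeR adjusted p = 0.0521). Over all their alternatives the adjusted p ran between 3.01e-09 and 1.00.

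No other gene of the adhesion lists was called in this fit, in which 0.222% of all genes rose and 0.674% fell. Of 19 ligands tested 0 rose and 1 fell (median log2 change -0.06), and of 22 tail-binding activators and adaptors 0 rose and 1 fell (-0.14). Of 20 kinases and relays 0 rose and 1 fell (0.00). Of 14 inhibitors and traffic proteins and of 14 lateral partners 0 passed (medians 0.04 and -0.05), against a median of 0.01 over all genes tested. At an unadjusted p under 0.05 in edgeR these last 2 lists held 1 and 4 genes. By that measure the ligands held 6, the tail-binding proteins 7 and the kinases and relays 3, where 16.9% of all genes tested did so. DESeq2 called 0 inhibitors and traffic proteins and 1 lateral partner (CAV1). Further calls depended on the fit: DESeq2, and edgeR with no filter, also called the ligands THBS1, LAMA4 and CCN2, edgeR with no filter CAV1, and edgeR with library sizes alone LAMA4. In the fit given here their edgeR adjusted p-values were just above the threshold, at 0.0661 for THBS1, 0.0514 for LAMA4 (log2 change 0.63), 0.0780 for CCN2 (-0.50) and 0.0582 for CAV1 (-0.52). Talin itself (TLN1) had log2 ratios of -0.11 in SK-MEL-28 and 0.04 in A375, and focal adhesion kinase (PTK2) of 0.16 and 0.20, and neither passed (edgeR adjusted p = 0.863 and 0.346). Among the most abundant genes of the lists that did not pass were the ligands THBS1 (-0.59, edgeR adjusted p = 0.0661) and TNC (-0.33, 0.382), the actin cross-linker ACTN4 (-0.15, 0.317) and the small GTPases RHOA (-0.01, 0.952) and CDC42 (-0.20, 0.272). The tail-binding filamin FLNA (-0.10, 0.486), ITGB1BP1, which binds the ITGB1 tail (0.03, 0.903), the tetraspanin CD63 (0.13, 0.409) and SLC3A2 (-0.12, 0.548), which associates with beta chains, did not pass in edgeR either. TNC, a ligand of ITGA9, had ratios of -0.70 in SK-MEL-28 and 0.05 in A375. THBS1 and FN1 were split between the lines: FN1 was 48.2-fold higher in SK-MEL-28 than in A375 and THBS1 234-fold lower there (edgeR adjusted p = 4.65e-07 each). ILK was not analysed here.

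**Figure D5:**
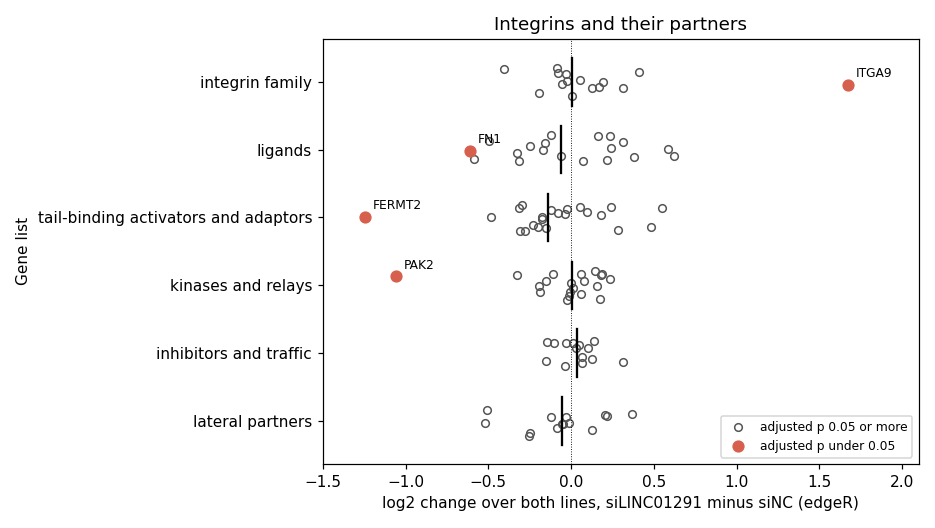
Log2 change over both lines (siLINC01291 minus siNC, edgeR) of each tested gene in the integrin family and 5 adhesion lists, with the median of each list as a bar. Filled points passed the test: ITGA9 at 1.67 in the integrin family, FN1 at -0.61, FERMT2 at -1.24 and PAK2 at -1.06.

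Sequence was looked at for words of 7 bases in 3' UTRs, CTATGAA and TCTATGA. They were taken from an earlier account of these same data, in which they went with lower ratios. A word in a gene that fell, or its absence from one that rose, is therefore no independent evidence. The relation of the words to the ratios was not tested here. They were searched on the transcript strand only and overlap each other by 6 bases. Either word occurred in the 3' UTR of the principal transcript of 3 of the 10 subunits (ITGA2, ITGA4 and ITGAV), against 14.4% of 10728 genes searched. The overlapped 8-base form was in 0 of the 10, against 3.59% of genes. The sites are shown with up to 8 bases on either side, 5′ to 3′ on the transcript, the word in capitals, from GENCODE 29 transcripts on GRCh38, so that the subunits can be set beside the 3 partner genes that fell.
ITGA2 (chr5:53092292-53092314, +): tttaaaagTCTATGAtctggact
ITGA4 (chr2:181536092-181536114, +): tcagcagaCTATGAAtattatag
ITGAV (chr2:186679524-186679546, +): aaattgccCTATGAAaactttaa
FERMT2 (chr14:52857669-52857692, -): agtaaagtTCTATGAAgtatgcat
FN1 (chr2:215360760-215360782, -): tttgaaaaTCTATGAtgtgcaag
PAK2 (chr3:196829661-196829683, +): tggtattaTCTATGAgaacttga
PAK2 (chr3:196830150-196830172, +): ccactataTCTATGAtaagatgc
PAK2 (chr3:196831394-196831416, +): ctgggaaaCTATGAAacatggaa

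ITGA2, ITGA4 and ITGAV, with a word each, had log2 ratios of -0.69, -0.62 and -0.22 in SK-MEL-28 and of 0.48, -0.24 and 0.22 in A375. ITGA9, the one that rose, has neither word in a 3' UTR of 4525 bases. ITGA3 (lower in both lines), ITGA5 (higher in both) and ITGA6, ITGB1, ITGB3 and ITGB5 (opposite signs) lack both words as well. FERMT2 carries the overlapped form, PAK2 has 3 sites, and ITGB1BP1, at a log2 change of 0.03, has 2. Of the other integrins ITGA1 and ITGB8 hold a word, and neither passed the siRNA test. A match is a description of the letters and not of a binding site, and the part of these words in any ratio was not tested.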

How the data were processed

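RNA sequencing values of 4 libraries were used. Per the labels' protocols, mRNA was enriched with oligo(dT) for Illumina sequencing; fastp cleaned the reads and removed duplicates, HISAT2 aligned them, StringTie assembled transcripts, and HTSeq gave the counts. The submitters' processing notes name the build hg19 and, with no role, DESeq2 and edgeR, all without a tool version. The deposited counts are whole reads per gene, not normalised. The deposited CPM are counts scaled by the library total, and the deposited FPKM equal CPM over 1 length per gene, checked on the values. The deposited TPM were used only as an alternative for chain shares. The smallest FPKM sum of a listed gene is 1.00.

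Counts of the 13501 genes that reached 1 FPKM in 2 or more libraries were fitted in edgeR 4.0.16 (R 4.3.3, TMM factors, quasi-likelihood test, terms for cell line and siRNA, 1 residual degree of freedom, Benjamini-Hochberg adjustment over all genes, called under 0.05). The SE is the log2 change over the square root of F. The pairing comes from the cell line, and each group has 1 library. The siRNA p-values thus rest on the spread of the siRNA difference between the lines, which edgeR moderates with that of all genes tested. With 1 residual degree of freedom, much of the variance behind a p-value or SE is borrowed from other genes. Ratios within a line used a prior count of 2, and folds with exact binomial intervals used none. DESeq2 1.42.0 and limma 3.58.1 were alternatives, and the edgeR fit was tested on simulated data. Words were searched in 3' UTRs of at least 50 bases, 1 principal transcript per gene, in GENCODE 29.

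The members and lists were chosen with earlier results of these data known. Named were the 10 members, the other integrin subunits listed, LINC01291, and of each adhesion list the genes that passed (at most 4), with the 2 of highest CPM where fewer than 2 passed, and FN1, TLN1, FERMT2, ILK and PTK2; ITGB1P1, LAMA4, CCN2 and CAV1 were named after their values were seen.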

Additional observations from a re-analysis of the deposited data

Results flagged for a closer look

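For 4 subunits, the siRNA library was lower than its control in SK-MEL-28 and higher in A375, with counting intervals on either side of no change. How many of all genes tested do so was not counted. The log2 ratio in SK-MEL-28 minus that in A375 was -1.18 for ITGA2, -0.88 for ITGA6, -0.44 for ITGAV and -0.39 for ITGB1. The difference between the lines was not tested, since each ratio rests on 1 library per group.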

How the results depend on the processing

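With an FPKM minimum of 5, ITGA9 was not tested and 0 of 8 subunits were called (edgeR; 0 at an unadjusted p under 0.05); all genes then gave 5 higher and 27 lower calls, the kinases and relays 0 calls (2 at an unadjusted p under 0.05), and the line comparison 3003 higher and 2997 lower, as fewer genes were tested. Without the replicate block (no cell line term) edgeR called 0 subunits, 0 genes higher and 0 lower (51 at an unadjusted p under 0.05, of which 0 subunits), and 0 ligands, 0 tail-binding proteins and 0 relays. Limma on log2(FPKM + 1) called 0 subunits (1 at an unadjusted p under 0.05), 1 gene higher, 5 lower and 0 in each of these 3 lists; on log2(FPKM + 0.1) it called 0 subunits, 0 higher and 0 lower (2120 at an unadjusted p under 0.05). With no filter there were 146 and 238 calls, 4 ligands and 1 lateral partner; in DESeq2 99 and 203, 4 ligands and 1 lateral partner; with library sizes alone 2 ligands. The cause of these shifts was not tested. On log2(FPKM + 1), 1 subunit passed 1.5-fold in SK-MEL-28 in place of 3. ITGB1 over its alpha partners, from counts, was 0.286 and 0.269 in SK-MEL-28 (siLINC01291, siNC) and 0.306 and 0.309 in A375; per kilobase of the principal transcript, chosen after seeing the data, it was 0.422, 0.401, 0.448 and 0.437. The overlapped 8-base word was in 0 of the 10. No single-replicate omission was possible, since each group has 1 library. The small changes over both lines turned sign in 10 cases, none of them called: ITGB1 (0.0023) and ITGB3 (0.0078) with library sizes alone, ITGAV (-0.0029) with no filter, ITGA2 (0.13) and ITGB1 (0.019) without the cell line term, ITGB1 (0.0028) and ITGB3 (0.0055) in limma on log2(FPKM + 1), ITGB1 (9.8e-05) and ITGB3 (0.0083) on log2(FPKM + 0.1), and the line difference of ITGAV (0.011) with no filter. A further 242 single-gene values under the alternatives kept their side of the threshold or lay within their interval, 10 moved beyond it and 18 lost a call, those of ITGA9, ITGA6, FERMT2, FN1 and PAK2.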

Other observations

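ITGA1, the neighbour of ITGA2, had the widest gap between the lines among the other integrin subunits tested, with a log2 ratio in SK-MEL-28 minus that in A375 of -1.30. TNC, a ligand of ITGA9, had a gap of -0.75. Among the integrin subunits, the length behind the deposited FPKM exceeded the principal transcript most for ITGB1 (3.85 times) and ITGA4 (2.54 times).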
